A study of Mus musculus with 2 samples.

Results

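Lysophosphatidic acid (LPA) and sphingosine-1-phosphate (S1P) are lipids that act as extracellular signals through G protein-coupled receptors. Autotaxin, coded by Enpp2, is a secreted enzyme that makes LPA, and the sphingosine kinase coded by Sphk1 makes S1P inside the cell, from where it is exported. The receptors Lpar1, Lpar2 and Lpar3 for LPA and S1pr1, S1pr2 and S1pr3 for S1P belong to the EDG family, whereas Lpar4 and Lpar6 are LPA receptors related to the purinergic receptors. Both lipids are present in serum, and in the heart they act on cardiomyocytes, fibroblasts and endothelial cells through Gi, Gq and G12/13.

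The expression of these genes was measured in primary mouse neonatal ventricular cardiomyocytes (mNVCM) on 2 Affymetrix arrays, 1 for cells pre-incubated with hAFS-CMHypo before doxorubicin (hAFS-CMHypo + Dox) and 1 for cells exposed to doxorubicin without pre-incubation (Dox). hAFS-CMHypo is the medium conditioned by human amniotic fluid-derived stem cells under hypoxia, and Dox is an anthracycline that breaks DNA by trapping type II topoisomerases. The comparison asks which genes differ in mNVCM when the secretome precedes Dox. Cells of both conditions came from C57BL6/J mice at postnatal day 2, spent 1 h in medium with 0.5% FBS and received 1 μM Dox, and those of hAFS-CMHypo + Dox had 3 h of secretome in between. The sample labels give 6 h of Dox for hAFS-CMHypo + Dox and 21 h for Dox, while the written methods give 6 h for gene expression in general, so the pre-incubation and the labelled hours cannot be told apart here. Primary cultures of this kind are made by digesting whole ventricular tissue and also hold non-muscle cells. In a bulk culture, fewer cells of a type and less RNA per cell cannot be told apart. Each condition was measured once, so the differences carry no replicate error and were not tested.

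Of 10 genes listed for the family, 9 had a probe set annotated to that gene alone, with 18 probe sets among the 45037 of the arrays, and the arrays covered 18193 genes. Enpp2 was not analysed here, since no probe set was matched to it alone. The genes were chosen by family, with the low value of Lpar3 on the hAFS-CMHypo + Dox array already known from these same arrays, so their differences are given as descriptions. Values are log2 expression after RMA, and differences are log2 ratios of hAFS-CMHypo + Dox over Dox. A gene took the value of its brightest probe set, by the mean of both arrays. As a yardstick within the arrays, probe sets that read the same gene differed in log2 ratio with an SD of 0.20, taken over 5170 genes. It holds no variation between cultures. The median of all values was 5.09 and their 25th percentile was 3.80. Levels of different probe sets are not set against each other.

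Lpar3 was the only one of the 9 genes that differed by 2-fold or more, and it was lower with hAFS-CMHypo + Dox. Sphk1 and S1pr3 were higher by less than 2-fold, at every one of their probe sets. S1pr1 was lower by a small amount, S1pr2 and Lpar6 differed by less than the SD between probe sets, and Lpar1, Lpar2 and Lpar4 depended on the probe set read. At 2-fold or more, 0 of the 9 genes were higher and 1 was lower, against 0.506% and 0.214% of all genes. Beyond the SD between probe sets, 3 were higher (Sphk1, S1pr3 and Lpar2) and 3 lower (Lpar3, Lpar4 and S1pr1), against 18.4% and 16.3% of all genes. Of these, Lpar2 lay below the median of all values on both arrays, where the SD was not taken. The median log2 ratio of the 9 genes was 0.08, with a range from -1.32 to 0.82, and the median of all genes was 0.01. Of the 18 probe sets, 0 were higher and 1 was lower by 2-fold, against 0.355% and 0.222% of all probe sets, and 9 were higher and 3 lower beyond the SD, against 17.3% and 16.7%. The set was chosen with these ratios known, so nothing is read from these shares.

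**Figure D1:**
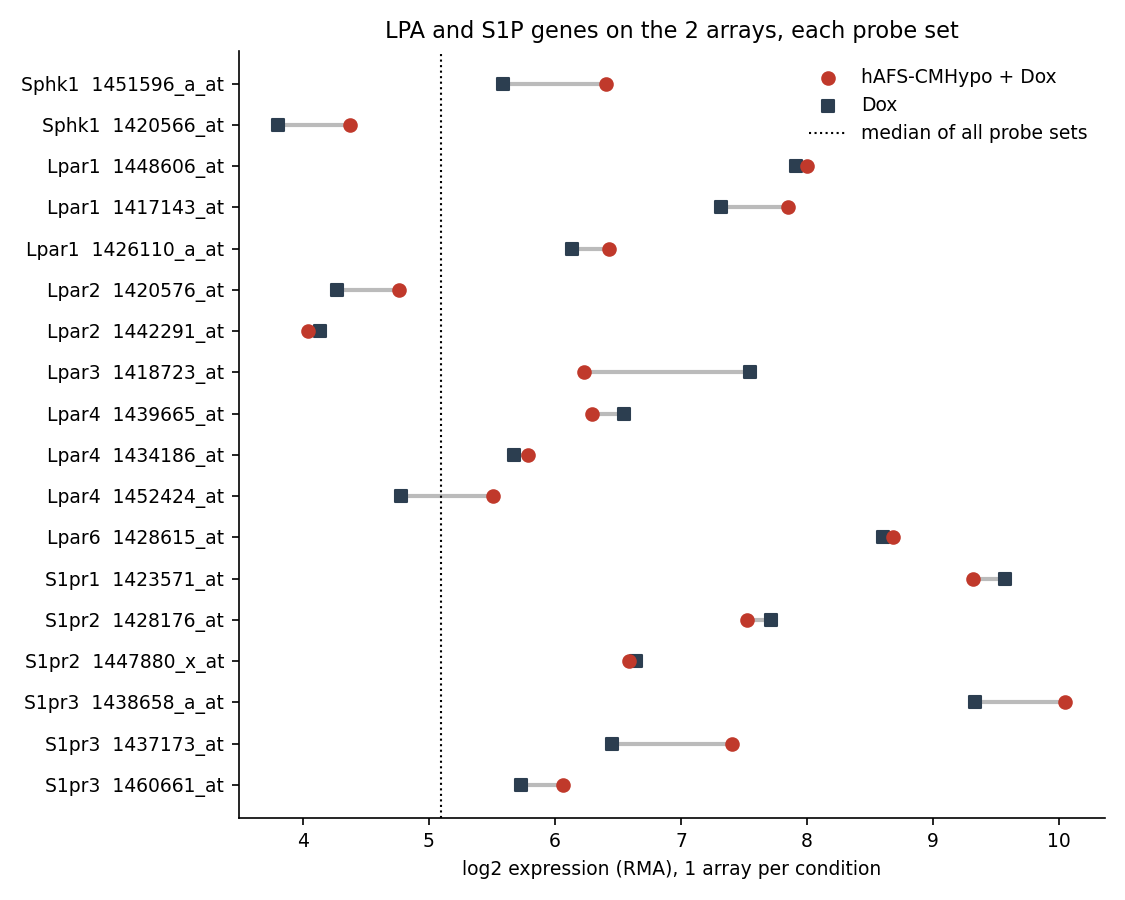
Log2 expression (RMA) at each of the 18 probe sets of the 9 genes on the hAFS-CMHypo + Dox array (red circles) and the Dox array (dark squares), 1 array per condition; the median of all values (5.09) is dotted. For Lpar3 the red circle (6.23) lies to the left of the dark square (7.55), and for all probe sets of Sphk1 and S1pr3 it lies to the right.

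Sphk1 makes the ligand of the S1P receptors by phosphorylating sphingosine. At its brightest probe set (1451596_a_at, of a type that may read several transcripts) it had a log2 value of 6.41 with hAFS-CMHypo + Dox and 5.59 with Dox, a log2 ratio of 0.82, or 1.77-fold higher. The other probe set (1420566_at) had 4.38 with hAFS-CMHypo + Dox and 3.80 with Dox, a log2 ratio of 0.57. Both probe sets were higher with hAFS-CMHypo + Dox, but the second lay below the median of all values on both arrays, and it alone is left when probe sets of less specific types are dropped. Among all genes, Sphk1 ranked 164 of the rises.

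Among the EDG-family receptors for LPA, Lpar3 stood apart. Lpar3 couples to Gi and Gq and is best known in the mouse for its role in embryo implantation. Its only probe set (1418723_at) had a log2 value of 6.23 with hAFS-CMHypo + Dox and 7.55 with Dox. The log2 ratio was -1.32, or 2.50-fold lower, with both values above the median of all values. Of all 18193 genes, 10 had a lower log2 ratio, so that Lpar3 ranked 11 of the falls. No second probe set was named for the gene, so the size of the difference cannot be set beside another measurement on these arrays.

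Lpar1, the most widely expressed LPA receptor, was higher with hAFS-CMHypo + Dox at its 3 probe sets, by different amounts. At the brightest (1448606_at) the log2 value was 7.997 with hAFS-CMHypo + Dox and 7.91 with Dox, a log2 ratio of 0.08. The others had log2 ratios of 0.53 (7.85 with hAFS-CMHypo + Dox and 7.32 with Dox, 1417143_at) and 0.29 (6.43 with hAFS-CMHypo + Dox and 6.14 with Dox, 1426110_a_at). Both of these exceeded the SD between probe sets, which the value taken for the gene did not. Lpar2, which shares most of the G protein partners of Lpar1, lay below the median of all values at both probe sets on both arrays. It had 4.76 with hAFS-CMHypo + Dox and 4.27 with Dox at one (1420576_at, log2 ratio 0.49), and 4.05 with hAFS-CMHypo + Dox and 4.14 with Dox at the other (1442291_at, log2 ratio -0.09). The difference in Lpar2 was therefore carried by 1 of 2 dim probe sets.

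The receptors Lpar4 and Lpar6 signal through G12/13 and, in the mouse, take part in the growth of blood vessels. Lpar4 had no single direction. Its brightest probe set (1439665_at) had 6.29 with hAFS-CMHypo + Dox and 6.55 with Dox, a log2 ratio of -0.25. The next (1434186_at) had 5.79 with hAFS-CMHypo + Dox and 5.67 with Dox, a log2 ratio of 0.12, and the third (1452424_at) had 5.51 with hAFS-CMHypo + Dox and 4.78 with Dox, a log2 ratio of 0.72. On the Dox array the third lay below the median of all values. The log2 ratios of Lpar4 span 0.98, the widest gap between probe sets among the 9 genes. Lpar6 had 8.68 with hAFS-CMHypo + Dox and 8.60 with Dox at its only probe set (1428615_at), a log2 ratio of 0.08.

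Among the S1P receptors, S1pr3 was higher with hAFS-CMHypo + Dox at all 3 probe sets. S1pr3 couples to Gi, Gq and G12/13, and in the mouse heart it slows the heart rate. The brightest (1438658_a_at, also of a type that may read several transcripts) had a log2 value of 10.05 with hAFS-CMHypo + Dox and 9.33 with Dox, a log2 ratio of 0.71, or 1.64-fold higher. The second (1437173_at) had 7.40 with hAFS-CMHypo + Dox and 6.46 with Dox, a log2 ratio of 0.95, and the third (1460661_at) had 6.07 with hAFS-CMHypo + Dox and 5.73 with Dox, a log2 ratio of 0.33. Every one of them exceeded the SD between probe sets and none reached 2-fold.

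S1pr1, which signals through Gi and keeps the endothelial barrier, had a log2 value of 9.31 with hAFS-CMHypo + Dox and 9.57 with Dox at its only probe set (1423571_at). The log2 ratio of -0.25 was slightly beyond the SD between probe sets. S1pr2, which acts mainly through G12/13, had 7.52 with hAFS-CMHypo + Dox and 7.71 with Dox (1428176_at, log2 ratio -0.19), and 6.59 with hAFS-CMHypo + Dox and 6.64 with Dox at a probe set of a less specific type (1447880_x_at, log2 ratio -0.05). Both differences were within the SD between probe sets. The log2 ratio of S1pr1 thus had the opposite sign to those of S1pr3, as a description of these arrays.

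**Figure D2:**
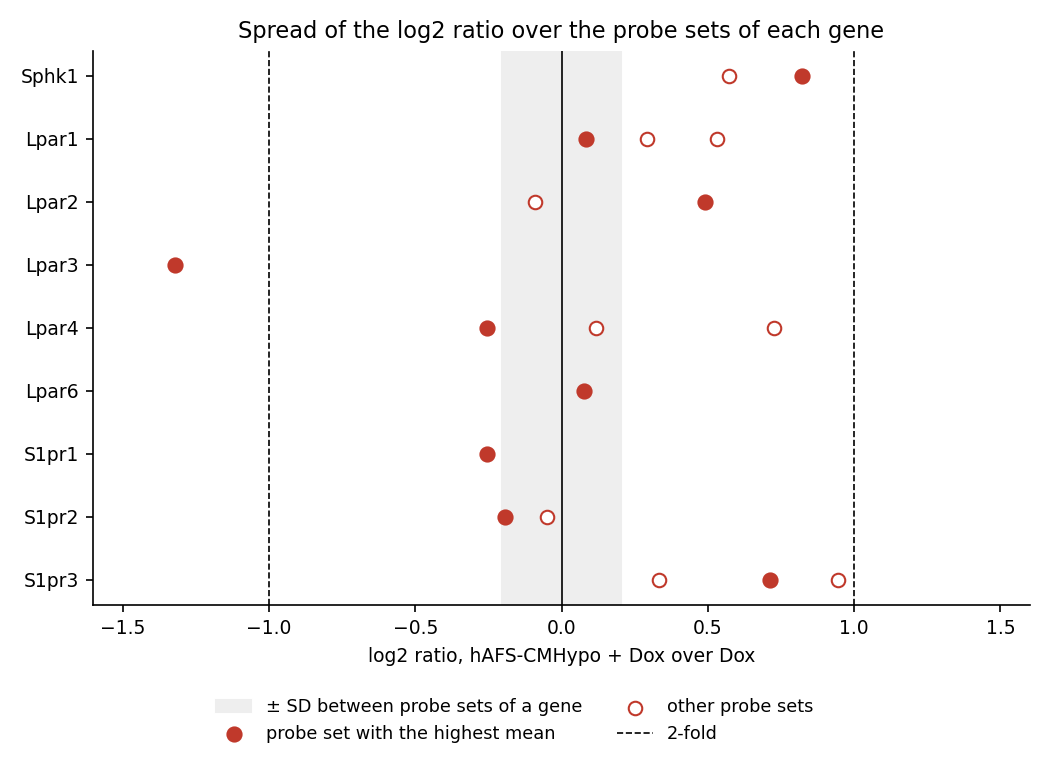
Log2 ratio of hAFS-CMHypo + Dox over Dox at each probe set of the 9 genes; filled points are the brightest probe set of a gene, open points the others, the grey band is ± 0.20, the SD defined in the text, and dashed lines mark 2-fold. Lpar3 alone lies beyond a dashed line, at -1.32, and Lpar4 spans from -0.25 to 0.72.

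**Figure D3:**
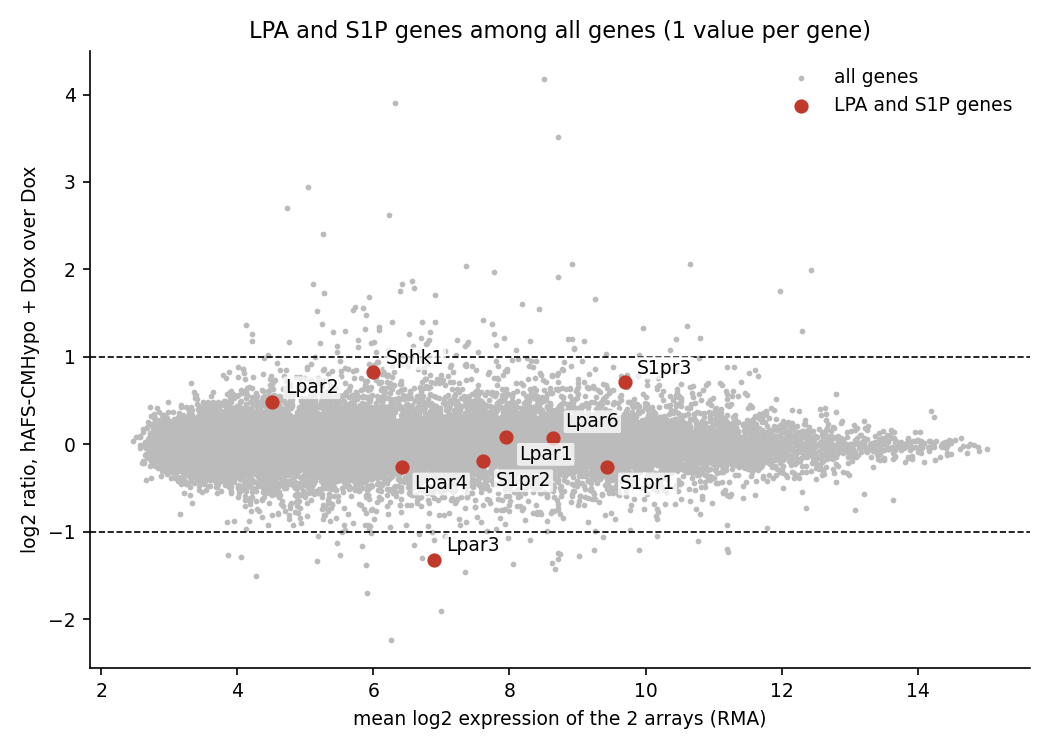
Log2 ratio of hAFS-CMHypo + Dox over Dox against the mean log2 expression of the 2 arrays, 1 point per gene for all 18193 genes (grey) and the 9 LPA and S1P genes (red); dashed lines mark 2-fold. Lpar3 (-1.32) lies below the lower line, and Sphk1 (0.82) and S1pr3 (0.71) lie between the lines, with 92 of all genes 2-fold or more higher.

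Sequence upstream of the start site is shown for the gene past 2-fold (Lpar3), the genes with the highest log2 ratios (S1pr3 and Sphk1) and the receptor whose window held matches to the NF-kB consensus (Lpar2), since NF-kB is the factor that the study followed. RefSeq start sites on GRCm38.p6 gave 14 windows for 8 of the 9 genes, and S1pr1 had none in the table used. Each window holds the 250 bases before a start site. Letters in capitals match 1 of 6 motifs on either strand, which are the NF-kB consensus, AP-1 (TGACTCA), CRE (TGACGTCA), STAT (TTCNNNGAA), the CArG box bound by SRF, and TEAD (GGAATG). No match overlapped another within a window.
Lpar3, chr3:146220711-146220960, plus strand: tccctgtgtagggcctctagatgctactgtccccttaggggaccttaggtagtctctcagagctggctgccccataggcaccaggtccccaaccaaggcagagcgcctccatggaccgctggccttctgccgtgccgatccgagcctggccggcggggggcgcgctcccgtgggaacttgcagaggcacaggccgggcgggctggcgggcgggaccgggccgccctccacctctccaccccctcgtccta
S1pr3, chr13:51408368-51408617, plus strand: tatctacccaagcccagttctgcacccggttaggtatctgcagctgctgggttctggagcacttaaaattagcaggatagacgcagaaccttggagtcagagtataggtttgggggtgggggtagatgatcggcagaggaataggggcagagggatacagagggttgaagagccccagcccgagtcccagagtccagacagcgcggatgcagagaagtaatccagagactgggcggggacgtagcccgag
Sphk1, chr11:116530850-116531099, plus strand: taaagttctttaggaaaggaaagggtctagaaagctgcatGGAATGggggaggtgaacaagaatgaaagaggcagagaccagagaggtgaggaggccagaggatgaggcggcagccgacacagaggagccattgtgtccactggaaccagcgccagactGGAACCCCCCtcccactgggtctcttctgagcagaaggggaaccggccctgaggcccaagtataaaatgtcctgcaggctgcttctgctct
Sphk1, chr11:116531587-116531836, plus strand: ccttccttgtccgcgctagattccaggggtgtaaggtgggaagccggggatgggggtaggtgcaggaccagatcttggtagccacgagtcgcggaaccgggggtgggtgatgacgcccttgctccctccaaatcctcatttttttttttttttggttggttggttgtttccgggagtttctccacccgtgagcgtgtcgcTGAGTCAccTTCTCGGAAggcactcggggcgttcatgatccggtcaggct
Lpar2, chr8:69822315-69822564, plus strand: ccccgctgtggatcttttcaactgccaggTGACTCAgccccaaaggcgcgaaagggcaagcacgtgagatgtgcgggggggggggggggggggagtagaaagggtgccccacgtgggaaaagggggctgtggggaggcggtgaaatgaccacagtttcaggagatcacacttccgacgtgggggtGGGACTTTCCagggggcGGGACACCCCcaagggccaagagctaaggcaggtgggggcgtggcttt

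The windows of Lpar3 and S1pr3, with log2 ratios of -1.32 and 0.71, held none of the 6 motifs. The Lpar2 window held 2 matches to the NF-kB consensus, of which GGGACTTTCC lay 65 to 56 bases before the start site and GGGACACCCC 48 to 39 bases before it, and 1 AP-1 match. Of the Sphk1 windows shown, the first held 1 match to the NF-kB consensus on the opposite strand and 1 TEAD match, and the second held 1 AP-1 match and 1 STAT match. The Sphk1 windows that begin at 116532194 and 116532201, which overlap and are not shown, held none of the 6 motifs. S1pr2 had the only CRE match and Lpar6 a TEAD match. Over all 32841 windows of this length, 7.25% held the NF-kB consensus, 4.46% AP-1, 1.55% CRE, 7.02% STAT, 1.47% the CArG box and 12.6% TEAD. Among the 14 windows, some of which overlap, 2 held the NF-kB consensus, 3 AP-1, 1 CRE, 2 STAT, 0 the CArG box and 2 TEAD. The 2 STAT matches are 1 Sphk1 site read in 2 overlapping windows, and so are 2 of the 3 AP-1 matches. The match is of letters only. Of the 14 windows, that of Lpar3 was the richest in G and C after 1 of Lpar1, with 69.6% against a median of 52.4% over all windows.

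The enzymes and carriers around these receptors differed less than Lpar3, and none reached 2-fold. Of 26 genes listed for LPA synthesis and breakdown, 7 were higher and 8 lower beyond the SD between probe sets (median log2 ratio -0.01). The lower ones include Plppr2, Plppr3 and Plppr4, genes related to the lipid phosphatases and named after their values were seen, so the counts are not a balance of LPA enzymes alone. For this and the lists that follow, the shares over all genes were 18.4% higher and 16.3% lower. The counts and shares were not limited to genes at or above the median of all values, where the SD was taken. Plpp2, a lipid phosphatase that degrades LPA and S1P, had 0.65 (9.76 with hAFS-CMHypo + Dox and 9.12 with Dox), but -0.05 at its other probe set. Pla2g4a, the cytosolic phospholipase A2 that releases arachidonic acid, had 0.58 (7.73 with hAFS-CMHypo + Dox and 7.16 with Dox). Plpp5, a related lipid phosphatase, had 0.45. Gpam, a mitochondrial acyltransferase that makes LPA for glycerolipid synthesis, was lower, with -0.53 (9.33 with hAFS-CMHypo + Dox and 9.85 with Dox).

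Of 15 genes that make, break down or carry S1P, 6 were higher and 3 lower beyond the SD (median 0.14), or 40.0% and 20.0%, against 18.4% and 16.3% of all genes. The list pools synthesis with breakdown, with Sgpl1, Sgpp1 and Sgpp2 among the higher genes, so its counts give no direction for the supply of S1P. Sgpp2 (3.47 with hAFS-CMHypo + Dox and 3.10 with Dox) lay below the median of all values on both arrays, where the SD was not taken. So did Acer1, also higher and named after its value was seen (4.99 with hAFS-CMHypo + Dox and 4.72 with Dox). Sphk2, the other sphingosine kinase, named after its value was seen, was among the lower, with -0.30 (-0.03 at its other probe set). Acer2 and Acer3, ceramidases that release the sphingosine used by sphingosine kinases, had log2 ratios of 0.78 and 0.57. Both depended on the probe set, with -0.15 at the other probe set of Acer2 and a lowest value of 0.03 among 4 for Acer3. Sgpp1, an S1P phosphatase, had 0.32 (0.03 to 0.49 over 3 probe sets), and Abca1, a lipid exporter, had -0.36 (up to 0.13 among 3). Of 23 ceramide and sphingomyelin enzymes, 7 were higher and 3 lower beyond the SD (median 0.09). Cerk, the ceramide kinase, had 0.54, Sgms1, a sphingomyelin synthase, had 0.35 (near 0 at the lowest of 4 probe sets), Cers6, a ceramide synthase, had 0.31, and Ormdl1, a regulator of sphingolipid synthesis, had -0.42. Of 6 other receptors for lysophospholipids or related to them, 4 were measured and none differed by more than the SD (median 0.08). S1pr4, a receptor of immune cells, had 0.14.

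Downstream of the receptors, 2 of 16 G protein subunits were higher and 4 lower beyond the SD (median 0.03), against 18.4% and 16.3% of all genes. Gnb4 had 0.37 (near 0 at the lowest of 3 probe sets) and Gna13, the alpha subunit of G13, had 0.27 (0.14 to 0.43 over 7 probe sets). Gnai2 had -0.35 (0.07 at its other probe set) and Gng2 had -0.35, with its 4 probe sets down to -1.11. Of 23 SRF and YAP factors and their targets, which LPA and S1P are known to activate, 6 were higher and 4 lower beyond the SD (median 0.05). Thbs1, a thrombospondin, had 0.40 at both probe sets and Mrtfb, a cofactor of SRF, had 0.35 (0.05 at the lowest of 3 probe sets). Fhl2, a cofactor abundant in cardiomyocytes, had -0.72 (12.00 with hAFS-CMHypo + Dox and 12.73 with Dox), and Myl9, a myosin light chain, had -0.33. No gene of these 6 lists, which hold 107 measured genes, was 2-fold higher or lower.

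**Figure D4:**
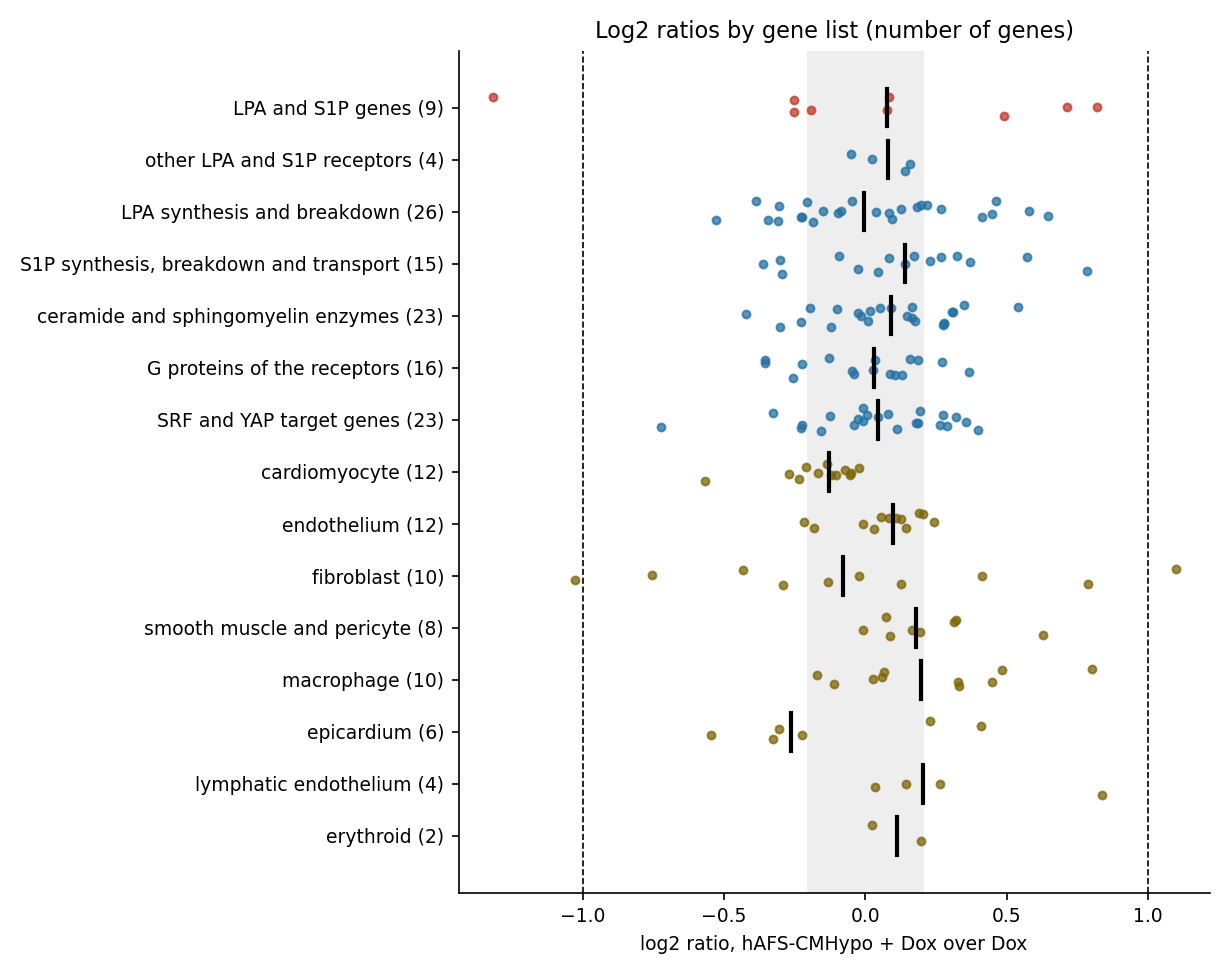
Log2 ratio of hAFS-CMHypo + Dox over Dox for the 9 LPA and S1P genes (red), 6 lists of related genes (blue) and 8 lists of cell type markers (brown), 1 point per gene, with the median as a black bar, ± 0.20 as a grey band and dashed lines at 2-fold. Lpar3 is the lowest point of all lists, at -1.32, and the medians of the lists lie between -0.27 and 0.21.

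The cell types that could carry these receptors were followed by their markers. Cardiomyocyte markers were abundant, with log2 values for hAFS-CMHypo + Dox and Dox of 14.99 and 15.05 in Myl2, 14.86 and 14.93 in Actc1, and 14.73 and 14.75 in Tnnt2. Of 12 cardiomyocyte markers, 0 were higher and 4 lower beyond the SD (median -0.13), against 18.4% and 16.3% of all genes here and for the other marker lists. They were led by Pln, a regulator of the calcium pump, with -0.57, and their levels summed on the linear scale were 206452 with hAFS-CMHypo + Dox and 222876 with Dox. Of 12 endothelial markers, 1 was higher (Vwf, 0.24) and 1 lower (Tek, -0.22, named after its value was seen), with a median of 0.10 and sums of 3652 with hAFS-CMHypo + Dox and 3517 with Dox, beside -0.25 for S1pr1. Vwf lay below the median of all values on both arrays (5.04 with hAFS-CMHypo + Dox and 4.79 with Dox), where the SD was not taken. Emcn, Eng and Cdh5 had 0.05, -0.01 and 0.14.

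Fibroblast markers differed in both directions. Of 10, 3 were higher and 4 lower beyond the SD (median -0.08), with sums of 16832 with hAFS-CMHypo + Dox and 16962 with Dox. Lum, a proteoglycan, had 1.10. Tcf21, a transcription factor also named after its value was seen, had -1.03 (0.18 at its other probe set), while Dcn, Col1a2 and Col3a1 had 0.41, -0.02 and -0.13. Of 8 smooth muscle and pericyte markers, 3 were higher and 0 lower (median 0.18, sums of 37921 with hAFS-CMHypo + Dox and 35986 with Dox), led by Cspg4 with 0.63. Acta2, Des and Tagln, the brightest of the list, carried most of these sums and had -0.01, 0.16 and 0.20. Myh11, named after its value was seen, had 0.07 and lay below the median of all values on both arrays (4.97 with hAFS-CMHypo + Dox and 4.89 with Dox). Of 10 macrophage markers, 5 were higher and 0 lower (median 0.20, sums of 5409 with hAFS-CMHypo + Dox and 5415 with Dox), with Cd14 at 0.80, Csf1r at 0.33 (-0.14 at the lowest of 3 probe sets), C1qb at 0.03 (up to 0.54 among 3) and Lyz2 at -0.11. Lyz2, the brightest of the list (11.80 with hAFS-CMHypo + Dox and 11.91 with Dox), carried most of these sums. Of 6 epicardial markers, 2 were higher and 4 lower (median -0.27, sums of 1195 with hAFS-CMHypo + Dox and 1423 with Dox). Lrrn4 had -0.55, Upk3b -0.33 (0.04 at its other probe set), Upk1b -0.30 (up to 1.01 among 4 probe sets) and Krt19 -0.23, while Msln and Wt1, named after their values were seen, had 0.41 and 0.23. Their median turned to 0.041 with the mean of all probe sets of a gene. Of 4 lymphatic markers, 2 were higher (median 0.21, sums of 2000 with hAFS-CMHypo + Dox and 1167 with Dox). Pdpn, with 0.84, made up most of the difference in the sums. Without it the sums were 137 with hAFS-CMHypo + Dox and 124 with Dox. Flt4 had 0.15 and Prox1 0.04, with other probe sets down to -0.21 and -0.45. Lyve1, the other higher marker, named after its value was seen, had 0.27 (-0.05 at its other probe set). Prox1 and Lyve1 lay below the median of all values on both arrays. The 2 measured erythroid markers, Alas2 and Hba-a1, had 0.20 and 0.02. The part of these cell types in the values of the receptors and of Sphk1 was not tested.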

How the data were processed

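Gene expression in mNVCM was profiled with 1 Affymetrix mouse genome array for hAFS-CMHypo + Dox and 1 for Dox. The authors applied RMA with quantile normalization, which the submitters' processing notes also name, and the deposited log2 values were used without change. RMA shrinks low signals towards each other and quantile normalization removes any shift of all genes between the arrays, so only changes relative to the other genes are measured. The log2 scale was inferred from the range of the values, 2.37 to 15.05. For the authors' software versions and genome build the entry is "not given in the sources used here". The table holds 45101 probe sets, of which 64 Affymetrix controls were left out. Over the others Pearson's r between the arrays was 0.995, and probe sets are not independent replicates. The number of arrays limits the precision.

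Probe sets were matched by the platform annotation, with symbols updated through the Entrez ID for 34741 of the 34945 probe sets with 1 gene, and 932 with several genes and 9160 with none were not named. Each gene was read at its brightest probe set, by the mean of both arrays. Genes were counted at the study's threshold of 2-fold and beyond an SD of 0.20 between probe sets that read the same gene (5170 of 9010 genes with several probe sets, at a mean at or above the median of all values). Members and lists were chosen with earlier results of these data known. All probe sets of the members are given, with the genes of each related list at 2-fold or more or among the 4 with the largest log2 ratio in either direction at or above the median signal, and of each marker list the 3 with the highest mean and the 1 with the largest log2 ratio. Related genes and erythroid markers without a probe set naming them alone were not analysed here, and 1 list of signalling genes is not reported here. Upstream sequences came from RefSeq (GRCm38.p6). The planned comparison of receptor proteins was not made.

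As alternatives, the threshold was set to 1.5-fold or 3-fold, dim probe sets were removed at the median or the 25th percentile of all values, ratios were centred or lowess-corrected (span 0.3), less specific probe sets were dropped, and a gene was read as the mean of its probe sets or at the one that changed most. Counting and lowess steps were tested on simulated data. Calculations used pandas 2.3.3 and numpy 2.4.6 under Python 3.11.15, with statsmodels 0.14.6 for lowess, and figures were drawn in matplotlib 3.10.9.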

Additional observations from a re-analysis of the deposited data

How the results depend on the processing

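The log2 ratio of Lpar3 lay between -1.34 and -1.32 under all 7 alternatives that give a value per gene, of which centring and lowess alone could change it, since the gene has 1 probe set above the median signal. At 3-fold, 0 of the 9 genes were past the threshold, and at 1.5-fold 3 were, of which 2 were higher (Sphk1 and S1pr3). Of 62 values of single genes under the alternatives, 54 moved by less than the SD between probe sets and 8 moved further, in Lpar1, Lpar2, Lpar4, S1pr3 and Sphk1. Lpar4 changed sign under 2 of them, the mean of all probe sets and the probe set with the largest change, with a highest value of 0.72. With the probe set of largest change, the median of the 9 genes was 0.49 and 5 were higher beyond the SD. At or above the median signal 8 of the 9 genes were left, without Lpar2.

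Over all genes, 422 were higher and 277 lower at 1.5-fold, 24 and 3 at 3-fold, and 83 were lower with the probe set of largest change. At 1.5-fold, 1 gene passed in each of the lists of LPA synthesis, S1P synthesis, SRF and YAP, lymphatic, macrophage and smooth muscle genes, and 4 fibroblast markers passed, against 0 at 3-fold and 1 with the mean of all probe sets. With the probe set of largest change, 1 G protein gene and 1 epicardial marker reached 2-fold. The median of the epicardial markers was 0.041 with the mean of all probe sets and 0.0018 when the one that changed most was read, and that of the lymphatic markers was 0.49 at or above the median signal. The other 94 of 97 list medians moved by less than the SD between probe sets. No paired analysis was possible because each condition has 1 array. Low signals limit Lpar2, the second probe set of Sphk1 and, on the Dox array, the third probe set of Lpar4, and detection calls were not used here.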

Other observations

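The genes next to the 9 LPA and S1P genes on GRCm38.p6, looked up after the members' values were seen, were read for whether the log2 ratio was shared along the chromosome. Lpar3 lies between Mcoln2, a lysosomal channel, and Ssx2ip, a protein of centrosomes and cell junctions, which had log2 ratios of 0.17 (4.51 with hAFS-CMHypo + Dox and 4.34 with Dox) and 0.46 (7.47 with hAFS-CMHypo + Dox and 7.01 with Dox), beside -1.32 for Lpar3. The neighbours of S1pr3, Nxnl2 and Shc3, had -0.02 and -0.18, beside 0.71, and those of Sphk1, Prpsap1 and Ube2o, had 0.03 and -0.15, beside 0.82. Lpar6 overlaps Rb1, the retinoblastoma gene, whose log2 ratio was 0.17 (9.27 with hAFS-CMHypo + Dox and 9.10 with Dox), beside 0.08 for Lpar6. Lpar4 lies next to P2ry10, a receptor for lysophosphatidylserine, which had 2.81 with hAFS-CMHypo + Dox and 2.78 with Dox, below the 25th percentile of all values on both arrays. No neighbour named here reached 2-fold.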
